A study of Malus domestica with 6 samples.

Results

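Phenylalanine ammonia-lyase (PAL) opens the phenylpropanoid pathway of plants. It removes ammonia from the amino acid phenylalanine and leaves cinnamic acid, from which lignin, hydroxycinnamic acids such as chlorogenic acid, and, through chalcone synthase, flavonols, proanthocyanidins and anthocyanins are made. The enzyme is encoded by a small gene family in most plants, and in apple skin it supplies part of the carbon skeleton of the red pigment. The 4 apple genes described here, MD01G1106900, MD07G1172700, MD04G1096200 and MD12G1116700, were chosen by their identifiers in the GDDH13 genome of apple as a list of PAL genes, out of 48602 rows in the fruit skin tables. In that naming scheme the first digits give the chromosome, so that the genes lie on chromosomes 1, 7, 4 and 12. The tables pair no identifier with a gene name, and the assignment of these 4 to PAL, and any difference in their enzymes, could not be checked against the data. As background, chromosomes 1 and 7, and chromosomes 4 and 12, carry duplicated segments from an old genome duplication in the apple lineage, and the genes are described in that order. Whether reads of similar copies were split between them was not tested.

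Poly-A RNA was sequenced from the skin of mature fruit of miR172 transgenic 'Royal Gala', an apple cultivar with red-striped fruit, and of wild-type (WT) 'Royal Gala', with 3 libraries per genotype. miR172 is a plant microRNA that represses APETALA2-type transcription factors, and the study's title ties it to anthocyanin synthesis. The labels name neither the promoter of the transgene nor the number of transgenic lines, so that an effect of a line and one of miR172 cannot be told apart. They also do not say whether libraries came from separate trees or fruit, and p-values therefore measure only the spread between these libraries. Flower tables of the series were not analysed here. Levels are FPKM, fragments per kilobase of gene corrected for the size of the library, as the authors deposited them. Whole reads could be recovered from them, and came to between 18761797 and 22809888 per miR172 library and between 17012710 and 23702606 per WT library. In bulk skin, fewer cells that express a gene and less of its RNA per cell cannot be told apart.

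All 4 genes were expressed in all 6 libraries, and all 4 passed the filter of a mean of 1 FPKM. MD01G1106900 and MD07G1172700 carried most of the summed level of the 4 listed genes in both genotypes. Their levels together made up 93.1 to 97.1% of the summed FPKM of the 4 genes in miR172 skin and 85.7 to 88.3% in WT skin. The less abundant of this pair stood 6.64 to 24.1 times above the more abundant of MD04G1096200 and MD12G1116700 in miR172 libraries, and 3.81 to 4.28 times above it in WT libraries. One of the 4 genes, MD04G1096200, differed between the genotypes past the threshold, with a fall in miR172 skin, and the other 3 did not pass it.

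**Figure D1:**
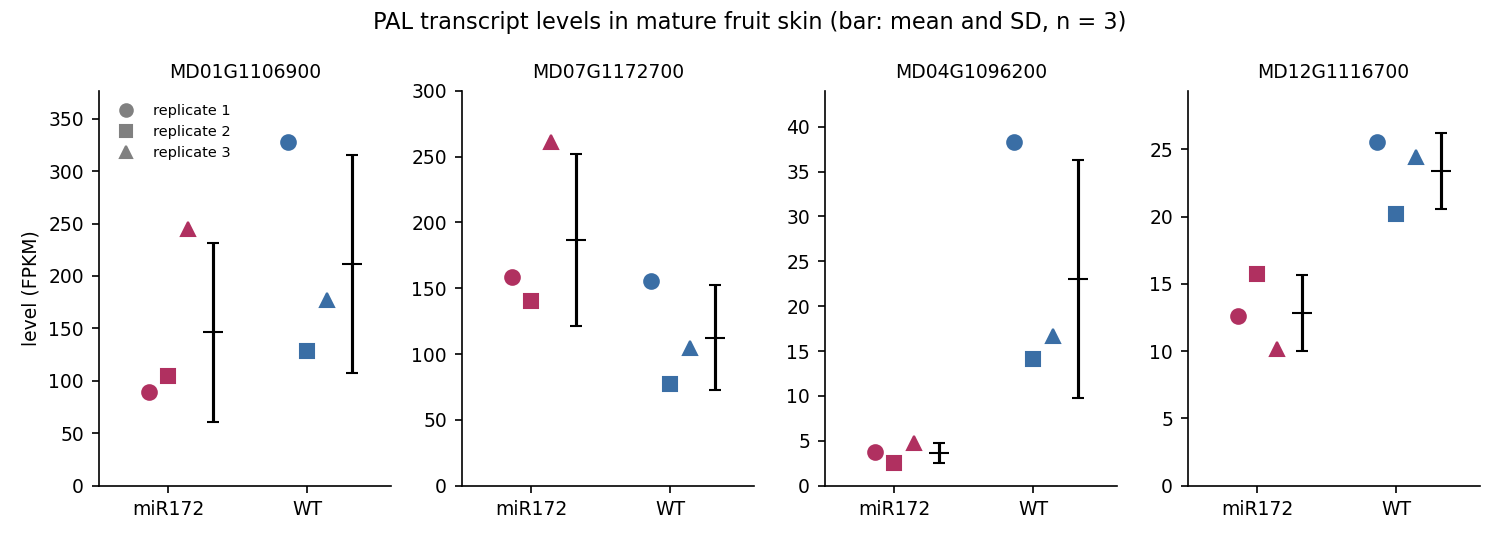
Levels of the 4 PAL genes in FPKM (vertical axis, a separate scale for each gene) in the miR172 and WT fruit skin libraries, with replicates 1, 2 and 3 as circles, squares and triangles, and the mean and SD (n = 3) beside them. The miR172 libraries of MD04G1096200 lie between 2.52 and 4.76 FPKM and its WT libraries between 14.1 and 38.3 FPKM, while the genotypes overlap for MD01G1106900 and MD07G1172700.

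MD01G1106900 was the most abundant of the 4 listed genes in WT skin. It stood at 89.8, 105 and 244 FPKM in miR172 replicates 1, 2 and 3, and at 328, 129 and 178 FPKM in WT replicates 1, 2 and 3. The genotypes overlapped, since miR172 replicate 3 lay above WT replicates 2 and 3. The means were 146 ± 85.3 FPKM in miR172 skin and 211 ± 104 FPKM in WT skin (SD, n = 3 each). The log2 fold change was -0.56 ± 0.47 (SE), with a 95% interval of -1.65 to 0.52, and the gene did not pass the threshold (limma adjusted p = 0.52). The interval reaches from a 3.13-fold lower to a 1.43-fold higher level in miR172 skin, so these libraries leave any change within that range possible. MD01G1106900 ranked 405 to 1065 from the top of all rows in miR172 libraries and 257 to 1148 in WT libraries.

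MD07G1172700 was the most abundant of the 4 listed genes in miR172 skin. It had 158, 140.3 and 261 FPKM in miR172 replicates 1, 2 and 3, against 156, 76.9 and 104 FPKM in WT replicates 1, 2 and 3. The genotypes overlapped through WT replicate 1, which lay above miR172 replicate 2 and just below miR172 replicate 1. The mean was 187 ± 65.1 FPKM in miR172 skin and 112 ± 40.0 FPKM in WT skin (SD, n = 3 each). The log2 fold change of 0.73 ± 0.35 (SE, 95% interval -0.08 to 1.55) did not pass the threshold (limma adjusted p = 0.25). When recovered reads were scaled to the recovered read total of each library instead (RPM, not scaled to length), the values were 519, 415 and 641 RPM in miR172 replicates 1, 2 and 3 and 375, 175 and 244 RPM in WT replicates 1, 2 and 3. The genotypes no longer overlapped in RPM. The share of all genes without overlap in RPM was not counted. With FPKM rescaled to the same totals, the log2 fold change was 1.03 and the adjusted p 0.094 (limma). Over every tested gene the median log2 fold change was 0.25 with rescaled FPKM, against -0.0033 as deposited.

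MD04G1096200 fell in miR172 skin. It had 3.73, 2.52 and 4.76 FPKM in miR172 replicates 1, 2 and 3, against 38.3, 14.1 and 16.7 FPKM in WT replicates 1, 2 and 3. All miR172 libraries lay below all WT libraries, and WT replicate 1 was far above the other WT libraries. The means were 3.67 ± 1.12 FPKM in miR172 skin and 23.0 ± 13.3 FPKM in WT skin (SD, n = 3 each), which is 6.28-fold lower in miR172 skin, or 4.19-fold lower without WT replicate 1. On the log2(FPKM + 1) scale the fold change was -2.26 ± 0.39 (SE), with a 95% interval of -3.15 to -1.36 (limma adjusted p = 0.012, lower in 3 of 3 miR172 libraries). Without miR172 replicate 2 the log2 fold change was -2.07 and the adjusted p 0.053 (limma), just above the threshold.

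The reads behind MD04G1096200 numbered 228, 164 and 211 in miR172 replicates 1, 2 and 3, and 1685, 525 and 889 in WT replicates 1, 2 and 3. The exact Poisson 95% interval of the lowest of these, 164 reads, ran from 139.9 to 191 reads, and that of the lowest WT count, 525 reads, from 481 to 572. Such intervals cover counting error only. The counting error was thus small beside the distance between the genotypes. Scaled to the recovered read totals, MD04G1096200 had 11.8, 7.19 and 11.2 RPM in miR172 replicates 1, 2 and 3, against 88.9, 30.9 and 37.5 RPM in WT replicates 1, 2 and 3. The genotypes again did not overlap, though how often this held for all genes in RPM was not counted.

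MD12G1116700 was lower in each miR172 library but did not pass the threshold. Its levels were 12.6, 15.7 and 10.1 FPKM in miR172 replicates 1, 2 and 3, against 25.5, 20.2 and 24.4 FPKM in WT replicates 1, 2 and 3. The genotypes did not overlap, and replicates were closer together than for the other 3 genes. The means were 12.8 ± 2.81 FPKM in miR172 skin and 23.4 ± 2.82 FPKM in WT skin (SD, n = 3 each), a 1.82-fold lower mean in miR172 skin. The log2 fold change was -0.83 ± 0.24 (SE, 95% interval -1.38 to -0.28), with an unadjusted p of 0.0083 and an adjusted p of 0.074 (limma). The separation of the genotypes depended on the scaling between libraries. Scaled to recovered totals, MD12G1116700 had 36.3, 40.9 and 21.9 RPM in miR172 replicates 1, 2 and 3, against 54.1, 40.3 and 50.04 RPM in WT replicates 1, 2 and 3. There miR172 replicate 2 lay above WT replicate 2. With FPKM rescaled to the same totals, the log2 fold change was -0.55 (limma adjusted p = 0.27).

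Read against all genes, 1 of the 4 PAL genes was called lower, where 3.35% of the 24668 tested genes were called lower and 8.59% in either direction (limma, adjusted p = 0.05). None was called higher, and 2 of the 4 had an unadjusted p under 0.05. The genotypes did not overlap for 2 of the 4 genes, both lower in miR172 skin, where 14.9% of tested genes were lower without overlap and 30.1% did not overlap in either direction. With 4 genes these counts are small, and they are given as a description. The shares of all genes moved with single libraries and with the scaling. Without WT replicate 3, 920 of 24907 tested genes were called, 248 of them lower, and without miR172 replicate 1, 816 of 24257, with 282 lower. Without WT replicate 2 the calls numbered 1145 with 357 lower, and without miR172 replicate 2 they numbered 833 with 269 lower. Scaled to recovered totals, 2137 of 24668 tested genes were called, 472 of them lower. With voom on recovered reads it was 1268 of 24668 tested genes, with 637 lower, and with no filter 1622 of 37804, with 534 lower. The share of tested genes called lower was larger in other settings. Without WT replicate 1, 2607 of 24656 tested genes were called, 1158 of them lower. Without miR172 replicate 3 it was 2622 of 24679, with 1091 lower. With a filter of 5 FPKM, 748 of 15871 tested genes were called lower, and with a block for replicate number 923 of 24668. The median log2 fold change was -0.70 over the 4 genes and -0.0033 over all tested genes. In the order of fold changes, 1.00% of tested genes had a lower value than MD04G1096200 and 9.30% had a lower value than MD12G1116700. For MD01G1106900 that share was 17.2%, and for MD07G1172700 it was 85.0%.

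The summed level of the 4 genes overlapped widely between genotypes. It came to 265, 263 and 520.3 FPKM in miR172 replicates 1, 2 and 3, against 547, 239.8 and 323 FPKM in WT replicates 1, 2 and 3. The sum averaged 349 ± 148 FPKM in miR172 skin and 370.03 ± 159 FPKM in WT skin (SD, n = 3 each), so that the means differed by less than the spread within either genotype. The order of the means turned with the scaling, since the sum averaged 942 ± 256 RPM in miR172 skin and 829.7 ± 380.5 RPM in WT skin (SD, n = 3 each), again with wide overlap. The libraries miR172 replicate 3 and WT replicate 1 stood well above the others of their genotype. In WT replicate 1 all 4 genes were at their WT maximum. In miR172 replicate 3, MD01G1106900, MD07G1172700 and MD04G1096200 were at their miR172 maximum and MD12G1116700 at its miR172 minimum.

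The shares of the 4 genes in this pool, unlike its size, did not overlap between the genotypes for 3 of them. The shares sum to a whole, so a rise in any share lowers the rest, and these 3 separations are not independent. No comparable share was computed for other genes. By level, the genotypes did not overlap for 30.1% of all tested genes in either direction. MD07G1172700 held 59.9, 53.3 and 50.2% of the summed FPKM in miR172 replicates 1, 2 and 3, against 28.5, 32.1 and 32.3% in WT replicates 1, 2 and 3. MD01G1106900 held 33.9, 39.7 and 47.0% in miR172 replicates 1, 2 and 3, against 59.9, 53.6 and 55.0% in WT replicates 1, 2 and 3. MD04G1096200 held between 0.914 and 1.41% in miR172 skin and between 5.16 and 6.996% in WT skin. For MD07G1172700, MD01G1106900 and MD04G1096200 the genotypes did not overlap. MD12G1116700 held 1.95 to 5.98% in miR172 skin and 4.67 to 8.42% in WT skin, with overlap. The shares do not depend on the scaling between libraries, which cancels within a library.

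The mean share of MD07G1172700 was 54.5 ± 4.96% in miR172 skin and 30.95 ± 2.16% in WT skin, a difference of 23.5 percentage points (SD, n = 3 each, two-sided exact permutation p = 0.10). The share of MD01G1106900 differed by -15.9 points and that of MD04G1096200 by -4.92 points, both with an exact p of 0.10, and that of MD12G1116700 by -2.65 points with an exact permutation p of 0.30. An exact p of 0.10 is the smallest that 3 libraries against 3 can give, and adjusted over the 4 shares, which sum to a whole and are not independent, the smallest p was 0.13.

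**Figure D2:**
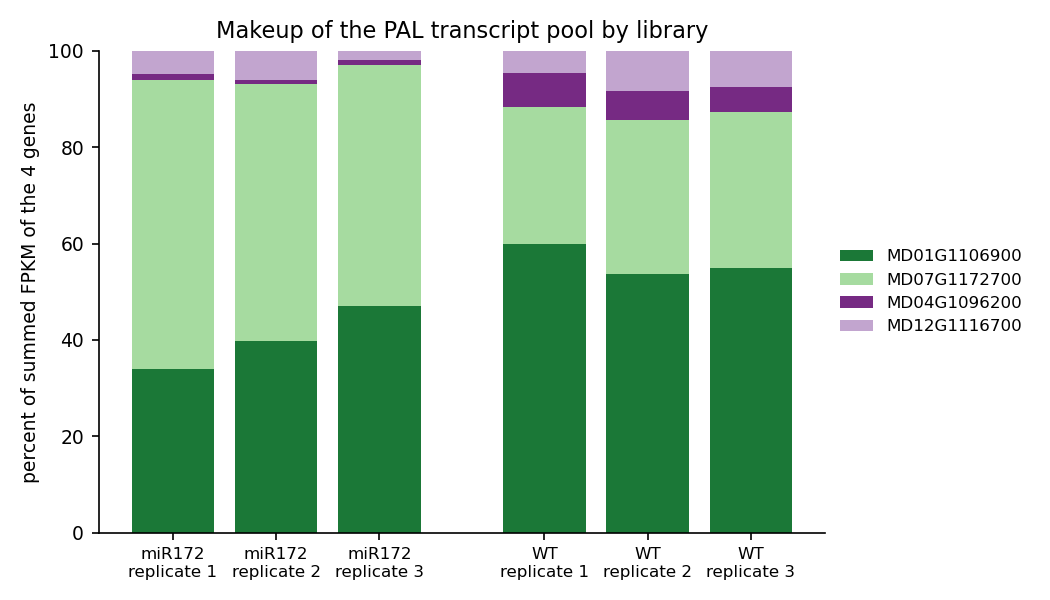
Percent of the summed FPKM of the 4 PAL genes held by each gene (stacked bars, vertical axis) in the 3 miR172 and 3 WT fruit skin libraries. MD07G1172700 takes 50.2 to 59.9% of the pool in miR172 libraries and 28.5 to 32.3% in WT libraries, and the band of MD04G1096200 is thin in every miR172 library.

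The order of the genes followed the genotype at the top. MD07G1172700 lay above MD01G1106900 in 3 of 3 miR172 libraries, and MD01G1106900 lay above MD07G1172700 in 3 of 3 WT libraries. The ratio of MD01G1106900 to MD07G1172700 was 0.567, 0.746 and 0.936 in miR172 replicates 1, 2 and 3, against 2.10, 1.67 and 1.70 in WT replicates 1, 2 and 3. The comparison of the ratios was chosen after the data were seen. The log2 ratio averaged -0.45 ± 0.36 in miR172 skin and 0.86 ± 0.18 in WT skin, a difference of -1.31 (SD, n = 3 each, two-sided exact permutation p = 0.10). In miR172 replicate 3, where both genes were at their highest for that genotype, the ratio was close to equality, and these neighbours in the order hardly differed there.

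The order at the bottom was less even. MD12G1116700 lay above MD04G1096200 in 3 of 3 miR172 libraries and in 2 of 3 WT libraries, with WT replicate 1 the other way round. Their WT levels overlapped, so that the order of these neighbours in WT skin was not beyond their spread. The ratio of MD04G1096200 to MD12G1116700 was 0.296, 0.160 and 0.469 in miR172 replicates 1, 2 and 3, against 1.4995, 0.698 and 0.684 in WT replicates 1, 2 and 3. The log2 ratio differed by -1.67 between the genotypes (two-sided exact permutation p = 0.10, n = 3 each, and 0.10 adjusted over the 2 ratios). Both ratios were thus lower in every miR172 library than in any WT library. No comparable count was made for ratios of other gene pairs. By level, the genotypes did not overlap for 30.1% of all tested genes in either direction. The exact permutation p of 0.10 restates the lack of overlap, since this design cannot give a smaller p.

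**Figure D3:**
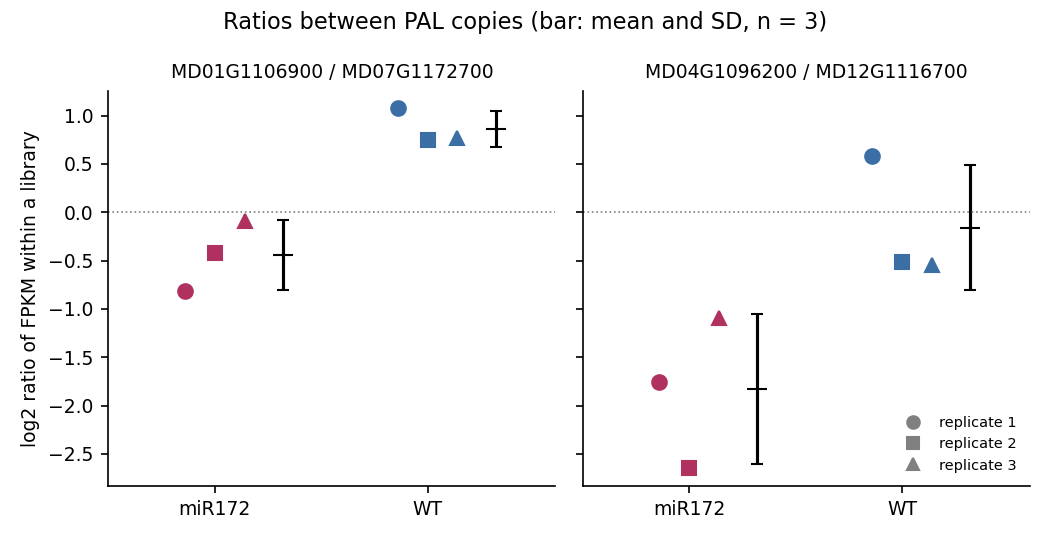
Ratio of FPKM within each library, on a log2 scale (vertical axis), of MD01G1106900 to MD07G1172700 and of MD04G1096200 to MD12G1116700, in miR172 and WT fruit skin, with replicates as symbols and the mean and SD (n = 3) beside them. The dotted line marks equal levels. The first ratio lies below it in all miR172 libraries (-0.82 to -0.10) and above it in all WT libraries (0.74 to 1.07).

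The direction of each fold change was the same under all 15 alternatives tried for it. Some of them could not have changed it. The filters on level, the fit with neither trend nor robust options and the block for replicate number leave the fold change itself as it was. For MD04G1096200 and MD12G1116700 the genotypes did not overlap in FPKM. Leaving out a library or changing the pseudocount could therefore not reverse the direction for either of them. For MD04G1096200 the log2 fold change ran from -2.58 to -1.60, the weakest of them with a pseudocount of 5 FPKM, which lies above all its miR172 levels. For MD01G1106900 the values ran from -1.01 without miR172 replicate 3 to -0.19 without WT replicate 1. For MD07G1172700 they ran from 0.46 without miR172 replicate 3 to 1.03 with levels set to recovered totals.

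**Figure D4:**
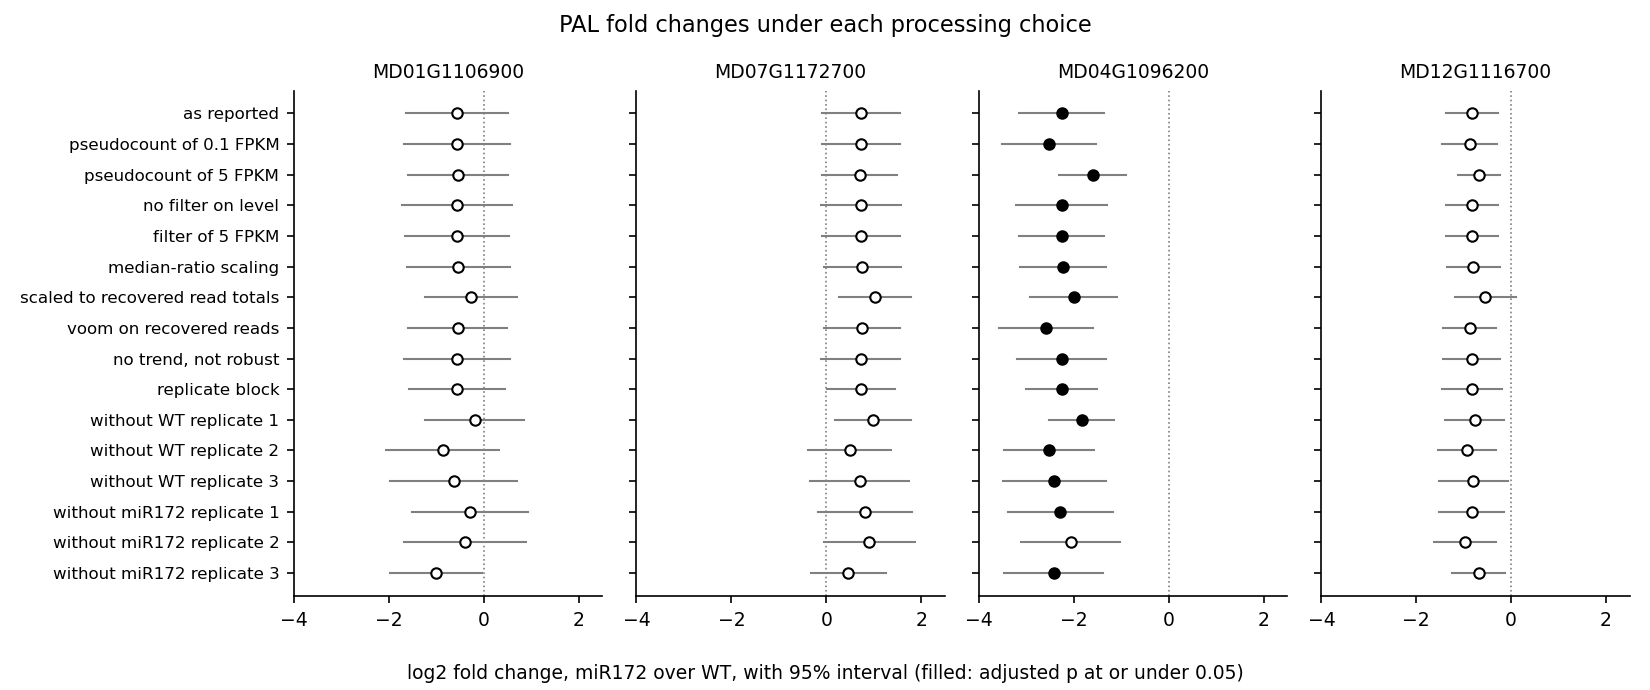
Log2 fold change of miR172 over WT fruit skin (horizontal axis, with its 95% interval) for each PAL gene under the reported fit and 15 alternatives (rows), with filled points where the limma adjusted p was at or under 0.05. MD04G1096200 is filled in all rows but the one without miR172 replicate 2 (-2.07), and the other 3 genes are open in every row.

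The genes whose levels followed the abundant pair most closely over the 6 libraries carry no name in the tables. For MD01G1106900 it was MD13G1045500, with a Pearson correlation of 0.997 on the log2(FPKM + 1) scale, and 0.998 without the 2 libraries farthest from the median. MD13G1045500 had 4.94, 5.23 and 10.4 FPKM in miR172 replicates 1, 2 and 3, against 12.2, 6.19 and 7.78 FPKM in WT replicates 1, 2 and 3. For MD07G1172700 it was MD09G1053100, with a correlation of 0.999, and 0.994 without the 2 farthest libraries. These are the highest values among 24664 genes and are descriptions. All genes of a library share its scaling. Over these 6 libraries, 105 genes reached a correlation above 0.95 with MD01G1106900 and 236 with MD07G1172700.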

How the data were processed

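RNA sequencing of 6 fruit skin libraries was used. Per the labels' protocols, strand-specific poly-A libraries were sequenced in pairs and aligned to GDDH13 with Bowtie2. The submitters' processing notes also list HISAT2 2.0.5, StringTie 1.3.3b, featureCounts 1.5.0-p3 and DESeq2 1.16.1, without roles. The aligner behind the values, the annotation used and how strand was handled are not given in the sources. The authors deposited FPKM for each library, per the file headers. Another 12 columns, in 4 tables, could be matched to no labelled sample and were not used.

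Levels of all genes were tested with limma 3.58.1 (R 4.3.3) on log2(FPKM + 1), using its trend and robust options, two-sided, for the 24668 genes that averaged 1 FPKM or more, with Benjamini-Hochberg adjustment over all of them and a threshold of 0.05. A log2(FPKM + 1) fold change understates changes of low genes. Whole reads were recovered from FPKM by finding each library's divisor. For each gene, the shortest length from 50 to 40000 bases that made reads whole in all libraries was taken (tolerance 0.0001 reads plus 3e-09 of the count). This succeeded for all 37804 rows above 0 in some library, of which 23856 were above 0 in all libraries. In rows with few values above 0 a fitting length is easily found, and the shortest can understate the reads. The authors' divisors were 0.899 to 1.20 times the recovered total in miR172 libraries and 0.833 to 0.883 times in WT libraries, so the FPKM carry a scaling whose method is not given. Shares and ratios were compared by exact permutation tests (scipy 1.17.1). Scripts were tested on simulated data. The PAL genes are always named, with 1 gene for each of the 2 most abundant whose levels correlate best with it. The genes and tests were chosen with earlier results of these data known. Names, other pathway genes, tissue markers, the miR172 transgene and sequences were not analysed here, since no annotation at hand carries these identifiers.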

Additional observations from a re-analysis of the deposited data

How the results depend on the processing

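Of the 4 PAL genes, 1 was called under 14 of 15 alternatives, and leaving out each library gave 0 to 1, with 0 without miR172 replicate 2. There the log2 fold change of MD04G1096200 was -2.07 (limma adjusted p = 0.053, against 0.0041 to 0.0498 in the other alternatives), with 1 library fewer. Leaving out each library gave -2.53 to -1.84 for MD04G1096200, -0.98 to -0.69 for MD12G1116700, -1.01 to -0.19 for MD01G1106900 and 0.46 to 1.00 for MD07G1172700. The other alternatives were pseudocounts of 0.1 and 5 FPKM, no filter and a filter of 5 FPKM, median-ratio scaling, recovered read totals, voom on recovered reads, and limma with neither trend nor robust fitting. They changed no call of the 4 genes. The quasi-likelihood count test planned on recovered reads was not run, and voom on the same recovered reads took its place. Shares computed from recovered reads without scaling to length differed by 23.8 points for MD07G1172700 and by -16.2 points for MD01G1106900. Leaving out libraries, the log2 ratio of MD01G1106900 to MD07G1172700 differed by -1.48 to -1.12 and that of MD04G1096200 to MD12G1116700 by -2.04 to -1.26. Both ratios, their tests and these alternatives were chosen after the data were seen. Shares and ratios cannot pass a threshold of 0.05 here, so their tests say nothing on stability. With the replicate block 1 of the 4 genes was called, with a log2 fold change of -2.26 and an adjusted p of 0.0041 (limma) for MD04G1096200. Libraries with the same number deviated from their genotype means with correlations of 0.10, 0.101 and 0.039. Between different numbers the correlations ran from -0.152 to 0.103, and most were negative. Most libraries correlated best with their own number, but not all (miR172 replicate 2 and WT replicate 3 at 0.103), so the numbers were not taken as pairing. Each value rests on 164 reads or more, and the half-width of its counting interval was at most 15.6%, in MD04G1096200, whose miR172 libraries had a coefficient of variation of 30.5%.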
